A study of Mus musculus with 13 samples.

Results

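The genes encoding the proteins of the cytosolic ribosome were followed across mouse intestinal organoids and sorted intestinal stem cells (ISCs) with and without loss of Apc. They were chosen by symbol alone, as Rpl or Rps followed by a number and at most 1 letter (a, x or l), together with Rplp0, Rplp1, Rplp2 and Rpsa. The pattern took 81 of the 24054 genes counted, 49 of the large subunit and 32 of the small subunit.

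A ribosome is built from ribosomal RNAs and a fixed set of ribosomal proteins, most of them present in a single copy per subunit. The messenger RNAs of these proteins begin with a cytosine followed by a run of pyrimidines, the TOP motif, through which their translation is tied to growth signals. In the crypts of the intestine, Wnt signalling keeps stem cells dividing, and the transcription factor Myc, a Wnt target there, is known to drive genes of ribosome biogenesis.

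Bulk RNA-seq was done on 13 libraries in 6 groups, to ask what loss of Apc, the scaffold of the complex that degrades beta-catenin, does in different cells. All mice were adult and received 2 doses of 1 mg tamoxifen; no strain is named in the labels. Sec-Cre organoids carried Atoh1CreERT2, Apc fl/fl and Rosa26tdTomato (n = 2), ISC-Cre organoids carried Lgr5eGFP-CreERT2, Apc fl/fl and Rosa26tdTomato (n = 2), and the third organoid group was labelled WT with no allele given (n = 2). Organoids came from ileal crypts and are labelled 10 dpi; the labels set plating at that time, while the series text counts days after plating. Sorted duodenal ISCs carried Lgr5eGFP-CreERT2, Apc fl/fl and Rosa26tdTomato (n = 3, 14 dpi), sorted ileal ISCs labelled Sec-Cre carried Atoh1CreERT2, Apc fl/fl, Lgr5DTR-GFP and Rosa26tdTomato (n = 2, 21 dpi), and ileal WT ISCs carried Apc fl/fl, Lgr5DTR-GFP and Rosa26tdTomato with no Cre named (n = 2, 21 dpi). Atoh1 drives Cre in the secretory lineage and Lgr5 in the stem cells themselves, so a whole organoid can hold cells that kept Apc. Region, Cre driver or its absence, time, reporter allele and dissociation enzyme differ between the duodenal and the ileal ISCs and cannot be told apart.

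Gene counts ran from 11524335 to 45516228 per library. Apc had 179.8 and 198 CPM in Sec-Cre organoids, 189.5 and 237 CPM in ISC-Cre organoids, and 156 and 137 CPM in WT organoids, but a count over the whole gene does not check a deleted exon. Axin2, a direct Wnt target, rose in both Cre-carrying organoid groups, with 797 and 764 CPM in Sec-Cre organoids and 783 and 795 CPM in ISC-Cre organoids, against 221 and 388 CPM in WT organoids. It went against the label in the ileum: the libraries labelled ileal Sec-Cre ISCs had 80.9 and 38.2 CPM and the ileal WT ISCs 325 and 286 CPM (log2 fold change -2.40, adjusted p = 0.00785, edgeR). The 5 ISC markers made up 0.0228% and 0.142% of gene counts in the libraries labelled ileal Sec-Cre ISCs and 0.387% and 0.446% in ileal WT ISCs, and all 5 enterocyte markers rose in the Sec-Cre libraries. Replicate 1 of that group stood apart: 6 Paneth cell markers took 17.8% of its gene counts, against 0.818% in replicate 2, the 10 highest genes took 51.0%, against 8.28%, and 57.0% of its reads were unmapped, against 35.8%.

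The 81 genes are short and have many copies. Their median transcript was 805 bases, against 2234 bases for all annotated genes. In GENCODE vM21 on GRCm38, 73 of the 81 shared more than 20% of their 31-base words with a transcript of another gene, among them pseudogenes, and 52 shared more than 50%. Reads in such stretches can be split between copies or discarded as multimapping, so the values of these 73 genes are uncertain in level. Rpl5 shared 94.8%, Rpl12 52.0%, Rpl38 54.8% and Rps28 55.2%, whereas Rpl22 shared 9.85%.

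Promoters of the genes on which the results turn are shown because most of the family moved together and a few members went the other way. RefSeq promoter entries on GRCm38.p6, 250 bases before to 50 bases after each start, were found for 60 of the 81 genes. The windows run 5′ to 3′ from 50 bases before to 30 bases after the annotated start, and capitals mark the longest run of C and T on the gene's strand. Only in Rps24 and Rpl38 does that run span the annotated start. In the other windows shown it lies before the start, so capitals do not by themselves mark a TOP motif. The first 5 windows belong to genes that fell in both Cre-carrying organoid groups, the next 2 to genes that rose in Sec-Cre organoids, and the last to Rps27l.
Rpl12: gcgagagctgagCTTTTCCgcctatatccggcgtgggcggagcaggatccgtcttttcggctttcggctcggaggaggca
Rpl5: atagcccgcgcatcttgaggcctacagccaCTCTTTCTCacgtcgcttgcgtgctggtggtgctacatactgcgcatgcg
Rpl4: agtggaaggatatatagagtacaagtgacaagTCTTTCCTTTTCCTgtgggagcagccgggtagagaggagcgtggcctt
Rpl13: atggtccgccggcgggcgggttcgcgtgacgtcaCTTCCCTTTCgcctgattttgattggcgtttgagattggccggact
Rps24: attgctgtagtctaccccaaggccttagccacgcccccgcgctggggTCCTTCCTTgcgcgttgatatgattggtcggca
Rps28: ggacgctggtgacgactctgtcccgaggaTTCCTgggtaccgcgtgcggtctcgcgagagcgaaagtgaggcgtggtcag
Rpl38: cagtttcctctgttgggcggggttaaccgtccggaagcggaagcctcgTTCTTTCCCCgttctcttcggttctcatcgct
Rps27l: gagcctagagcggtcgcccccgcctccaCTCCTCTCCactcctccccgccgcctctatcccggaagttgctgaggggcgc

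These windows lie on the plus strand at chr2:32961662-32961741 (Rpl12), chr5:107900478-107900557 (Rpl5), chr9:64173337-64173416 (Rpl4), chr8:123102300-123102379 (Rpl13), chr14:24490628-24490707 (Rps24), chr11:114668530-114668609 (Rpl38) and chr9:66946036-66946115 (Rps27l). The Rps28 window lies on the minus strand at chr17:33824533-33824612. A run of at least 8 pyrimidines occurred in the 80-base window of 34 of the 60 ribosomal protein genes (56.7%), against 30.2% of 27025 genes with an entry. The letters CGGAAG, the core of the sites bound by GABP and other ETS factors, occurred on either strand of the 300-base entry in 41 of 60 (68.3%), against 17.2% of all genes. The E-box CACGTG, which reads the same on both strands and is bound by Myc, occurred in 5 of 60 (8.33%), against 7.24%, and TATAAA on either strand in 5 of 60 (8.33%), against 14.2%. Of the 8 genes shown, CGGAAG was in the entries of Rpl12, Rpl4, Rps28, Rpl38 and Rps27l and not in those of Rpl5, Rpl13 and Rps24.

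Most of the family was abundant in every library. Leaving aside 8 genes described next, the median over the 13 libraries ran from 139 CPM for Rps27l to 2504 CPM for Rplp0, with CPM from total gene counts. Per kilobase of transcript, as median CPM from total gene counts, the highest levels were those of Rplp1 (2456), Rplp0 (1844) and Rps2 (1741). Rplp0 and Rplp1 belong to the stalk that recruits translation factors.

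Some members were nearly absent from the counts. Rpl26 and the testis-expressed Rpl10l had no read in any library, where 3 reads is the floor used here. Rpl30 had 0 to 33 reads per library, Rps27 0 to 65, Rpl34 1 to 77, Rpl39l 0 to 13 and Rpl3l, the striated muscle form of Rpl3, 0 to 5. Rpl26, Rpl30, Rpl34 and Rps27 encode core ribosomal proteins, and the annotation places 76.2%, 84.3%, 48.0% and 98.7% of their 31-base words in other genes as well. The share of Rpl34 is below the family's median of 60.5%. Rpl35 shares 99.0% of its words and had 2423 to 10115 reads per library. The cause of the low counts was not tested. Rps4l, which GENCODE lists as a transcribed processed pseudogene, had from 2 to 2979 reads, with replicates far apart in several groups.

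The summed share of the family was lower in both Cre-carrying organoid groups and in the libraries labelled ileal Sec-Cre ISCs than in their WT groups, a description with no test. The 81 genes took 5.10% and 5.35% of gene counts in Sec-Cre organoids, 4.71% and 4.60% in ISC-Cre organoids, and 6.63% and 6.74% in WT organoids. Every Cre-carrying organoid library lay below both WT libraries. The share was 5.36%, 6.22% and 4.20% in duodenal ISC-Cre ISCs, 1.78% and 1.82% in the libraries labelled ileal Sec-Cre ISCs, and 5.87% and 5.21% in ileal WT ISCs. The ileal Sec-Cre share was the lowest of all groups, and the duodenal libraries spread across the ileal WT values. Signs of RNA quality differed between libraries as well. The ribosomal RNA precursor Rn45s took 0.380%, 0.271% and 5.26% of gene counts in duodenal ISC-Cre ISCs, the last in the library with the lowest duodenal share, 10.4% and 2.05% in the libraries labelled ileal Sec-Cre ISCs, and 0.519% and 0.573% in ileal WT ISCs. Lars2, the gene of mitochondrial leucyl-tRNA synthetase, took 8.60% and 1.66% in the libraries labelled ileal Sec-Cre ISCs, against 0.0668% and 0.0560% in ileal WT ISCs. In organoids Rn45s took 1.23% and 1.67% with Sec-Cre, 0.305% and 0.950% with ISC-Cre, and 0.373% and 0.456% in WT. Lars2 took 0.107% and 0.151% in Sec-Cre, 0.0263% and 0.0655% in ISC-Cre, and 0.0180% and 0.0234% in WT organoids. Multimapping reads made up 12.9% to 17.0% of all reads in duodenal ISC-Cre ISCs, 11.1% and 9.32% in the libraries labelled ileal Sec-Cre ISCs, and 5.20% and 5.76% in ileal WT ISCs. With unmapped reads left out, they made up 13.3% to 18.1% of reads in duodenal ISC-Cre ISCs. On that scale the libraries labelled ileal Sec-Cre ISCs had 25.9% and 14.5%, and ileal WT ISCs 6.04% and 6.06%. The part of these differences in the summed shares and in the organoid and ISC comparisons was not tested. In bulk libraries a lower share of such transcripts cannot be told apart from a change in which cells, or how much RNA per cell, make up the sample.

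**Figure D1:**
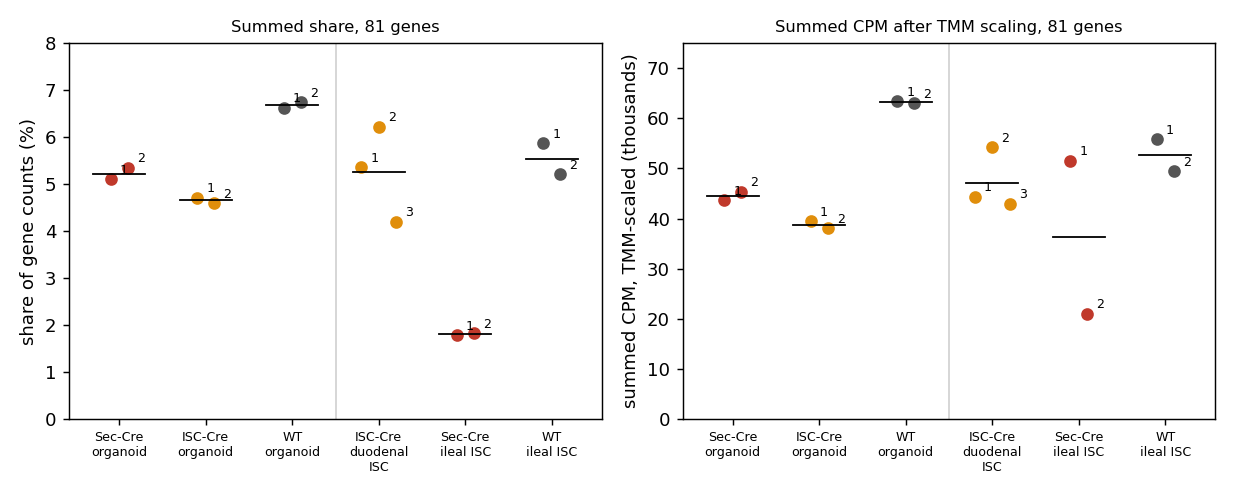
Summed level of the 81 ribosomal protein genes in each of the 13 libraries, as share of gene counts (left, %) and as summed CPM after TMM scaling (right, in units of 1000 CPM). Points are libraries numbered by replicate and bars are group means; the 4 Cre-carrying organoid libraries lie below both WT organoid libraries on either scale, whereas the 2 libraries labelled ileal Sec-Cre ISCs nearly coincide on the left (1.78% and 1.82%) and not on the right.

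TMM scaling left the organoid order as it was and split the ileal Sec-Cre pair. The summed level was 44532 ± 1171 CPM in Sec-Cre organoids, 38750 ± 1010 CPM in ISC-Cre organoids and 63234 ± 291 CPM in WT organoids (SD, n = 2 each). The libraries labelled ileal Sec-Cre ISCs had 51563 and 20953 CPM, with scaling factors of 0.344 and 0.868, against 55789 and 49432 CPM in ileal WT ISCs. Replicate 1 is the library in which Paneth cell markers took 17.8% of gene counts, and the part of that share in its scaling was not tested.

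In Sec-Cre organoids most ribosomal protein genes fell. Of 76 tested, 50 fell and 4 rose relative to WT organoids at an adjusted p under 0.05 (edgeR quasi-likelihood test, Benjamini-Hochberg over 14208 genes), where 16.3% of all genes fell and 16.7% rose. The median log2 fold change of the family was -0.48, against 0.05 for all genes tested. Both subunits took part, with 30 of 44 large subunit genes and 20 of 32 small subunit genes lower, and medians of -0.47 and -0.50.

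ISC-Cre organoids moved the same way. Of 76 tested, 60 fell and 1 rose relative to WT organoids, where 18.5% of all genes fell and 19.3% rose. The median was -0.73, against 0.03 for all genes tested, with 35 of 44 large subunit genes and 25 of 32 small subunit genes lower and medians of -0.73 and -0.72. Both comparisons use the same 2 WT libraries, so an error in those would appear in each. Between Sec-Cre and ISC-Cre organoids no member was called, with a median of 0.23 and 21 of 76 at an unadjusted p under 0.05; 0% of all genes were called higher and 0.0422% lower, DESeq2 called 2 members higher, and missing the threshold does not show that the groups were alike.

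**Figure D2:**
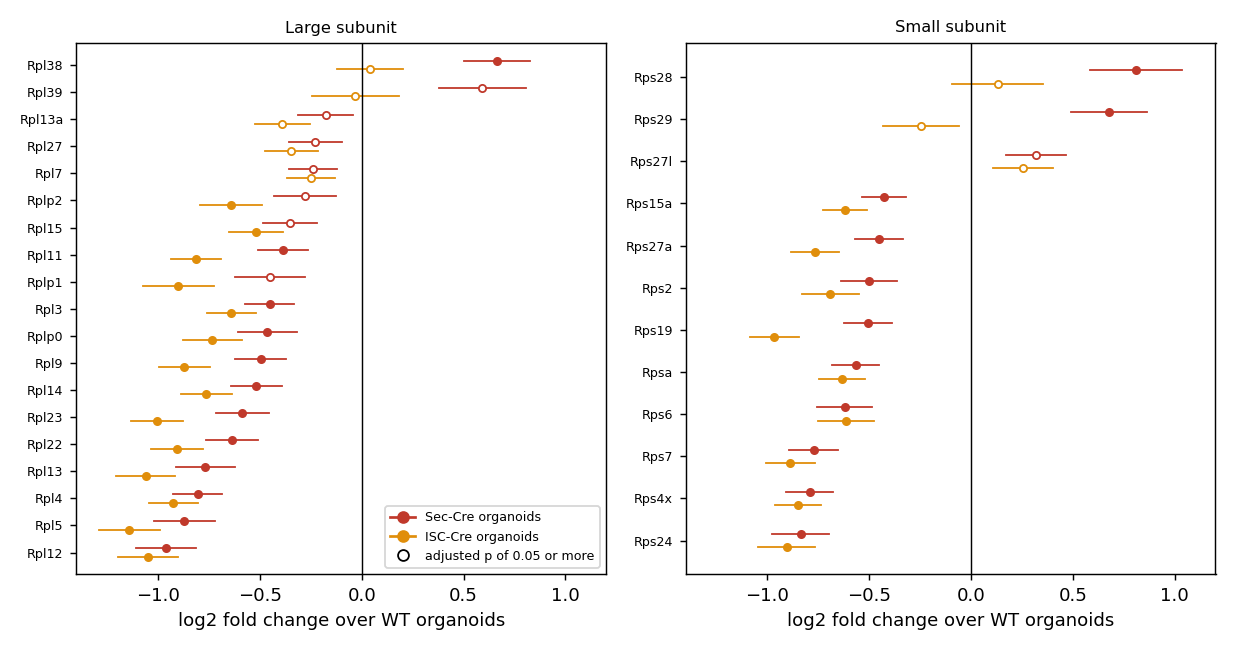
Log2 fold change over WT organoids (x axis) of the ribosomal protein genes named in the text in Sec-Cre and ISC-Cre organoids, with bars of 1 SE; filled points have an adjusted p under 0.05 (edgeR). Most points lie left of 0, and Rpl38, Rps28 and Rps29 lie to the right with filled points in Sec-Cre organoids. Rps4l and genes with very low counts are not drawn.

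Rpl5 and Rpl11, the pair that binds 5S ribosomal RNA and, when unassembled, inhibits Mdm2, were both lower. Rpl5 had 593 and 659.6 CPM in Sec-Cre organoids, 503 and 543 CPM in ISC-Cre organoids, and 1261 and 1002 CPM in WT organoids. All 4 Cre-carrying libraries lay below both WT libraries, with log2 fold changes of -0.87 ± 0.15 (SE, adjusted p = 0.00424) and -1.14 ± 0.15 (adjusted p = 0.00118). Rpl11 had 428 and 461 CPM in Sec-Cre organoids, 354 and 311 CPM in ISC-Cre organoids, and 567 and 580.0 CPM in WT organoids. The groups did not overlap, and the falls were smaller than those of Rpl5, at -0.39 ± 0.12 (adjusted p = 0.0469) and -0.81 ± 0.12 (adjusted p = 0.00219). The call of Rpl11 in Sec-Cre organoids was lost when any 1 organoid library was left out.

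Rpl12, which lies at the base of the stalk, showed the lowest fold change in Sec-Cre organoids. It had 617 and 676 CPM there, 684 and 539 CPM in ISC-Cre organoids, and 1270.2 and 1216 CPM in WT organoids. No Cre-carrying library reached the WT values, and its log2 fold changes were -0.96 ± 0.15 (adjusted p = 0.00268) and -1.05 ± 0.15 (adjusted p = 0.00159). Among the stalk proteins themselves, Rplp0 had 2196 and 2140.4 CPM in Sec-Cre organoids, 1625 and 1990.4 CPM in ISC-Cre organoids, and 2775 and 3132 CPM in WT organoids. Rplp0 fell in both comparisons (-0.46 and -0.73), and Rplp1 (-0.90) and Rplp2 (-0.64) fell in ISC-Cre organoids. In Sec-Cre organoids Rplp1 had a log2 fold change of -0.45 (adjusted p = 0.0851) and Rplp2 of -0.28 (adjusted p = 0.197).

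Further large subunit genes with the largest falls were Rpl4, Rpl13 and Rpl23. Rpl4, a core protein that lines the exit tunnel, had 1591 and 1713 CPM in Sec-Cre organoids, 1565 and 1490.0 CPM in ISC-Cre organoids, and 2944 and 2755 CPM in WT organoids. Its groups did not overlap, with log2 fold changes of -0.80 ± 0.12 (adjusted p = 0.00241) and -0.92 ± 0.12 (adjusted p = 0.00114). Rpl13 and Rpl23 fell by 1.06 and by 1.00 on the log2 scale in ISC-Cre organoids, and by 0.77 and by 0.58 in Sec-Cre organoids. Rpl3, which helps to form the peptidyl transferase centre, fell by 0.45 in Sec-Cre and by 0.64 in ISC-Cre organoids, and Rpl22, with few shared words, by 0.64 and by 0.91.

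In the small subunit, Rps24, a protein mutated in human Diamond-Blackfan anaemia, had 632 and 671 CPM in Sec-Cre organoids, 664 and 586 CPM in ISC-Cre organoids, and 1251 and 1048 CPM in WT organoids. Both Cre-carrying groups lay below the WT libraries and overlapped each other, at -0.84 ± 0.14 (adjusted p = 0.00379) and -0.90 ± 0.14 (adjusted p = 0.00231). Rps19, the gene most often mutated in that disease, fell by 0.51 in Sec-Cre and by 0.96 in ISC-Cre organoids. Rps6, the substrate of S6 kinase, fell by 0.62 and by 0.61, and Rpsa, which in the membrane acts as a laminin receptor, by 0.57 and by 0.63. Rps4x fell by 0.79 in Sec-Cre and by 0.85 in ISC-Cre organoids, and Rps27a, made as a fusion with ubiquitin, by 0.45 and by 0.77.

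The members that rose in Sec-Cre organoids were the small proteins Rps28, Rps29 and Rpl38, and Rps27. Rps28, which sits at the mRNA exit site, had 193 and 198 CPM in Sec-Cre organoids, 94.8 and 151 CPM in ISC-Cre organoids, and 97.4 and 123 CPM in WT organoids. Both Sec-Cre libraries lay above the rest of the organoids, while ISC-Cre and WT values overlapped; the log2 fold change was 0.81 ± 0.23 (adjusted p = 0.03) in Sec-Cre and 0.13 ± 0.22 (adjusted p = 0.684) in ISC-Cre organoids. Rpl38, which in mice is needed for the translation of Hox mRNAs, had 179.8 and 163 CPM in Sec-Cre organoids, 96.6 and 127 CPM in ISC-Cre organoids, and 101 and 113 CPM in WT organoids. Its pattern was that of Rps28, at 0.66 ± 0.16 (adjusted p = 0.0182) and 0.04 ± 0.16 (adjusted p = 0.871). Rps29, a zinc-binding protein, had 203 and 187 CPM in Sec-Cre organoids, 83.5 and 124 CPM in ISC-Cre organoids, and 123 and 118 CPM in WT organoids, a log2 fold change of 0.68 ± 0.19 (adjusted p = 0.029) in Sec-Cre organoids. The direct contrast of Sec-Cre and ISC-Cre organoids called none of these genes, with log2 fold changes of 0.68 for Rps28, 0.62 for Rpl38 and 0.92 for Rps29 and adjusted p of 0.984, 0.864 and 0.7. The calls of Rps28, Rpl38 and Rps29 in Sec-Cre organoids were lost without either Sec-Cre replicate and without WT replicate 1, and that of Rps29 also without WT replicate 2.

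Rpl39, a short protein of the exit tunnel, had 200.2 and 237 CPM in Sec-Cre organoids, 112 and 174 CPM in ISC-Cre organoids, and 151 and 136 CPM in WT organoids. It was not called in either group (0.59, adjusted p = 0.0685, and -0.03, adjusted p = 0.927), and the sign of the value in ISC-Cre organoids changed with the scaling.

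Rps27 rests on few reads, and 98.7% of its 31-base words lie in other genes as well. Its reads may therefore not stand for the expression of Rps27. It had 11 and 9 reads in Sec-Cre organoids, 11 and 16 in ISC-Cre organoids, and none in either WT organoid library. Against a floor of 3 reads over the WT group, it was at least 4.88-fold higher in Sec-Cre and at least 7.15-fold higher in ISC-Cre organoids, counting error only. It was called higher in both comparisons, a call that leaving out any 1 organoid library ended, except WT replicate 1 in the ISC-Cre comparison.

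**Figure D3:**
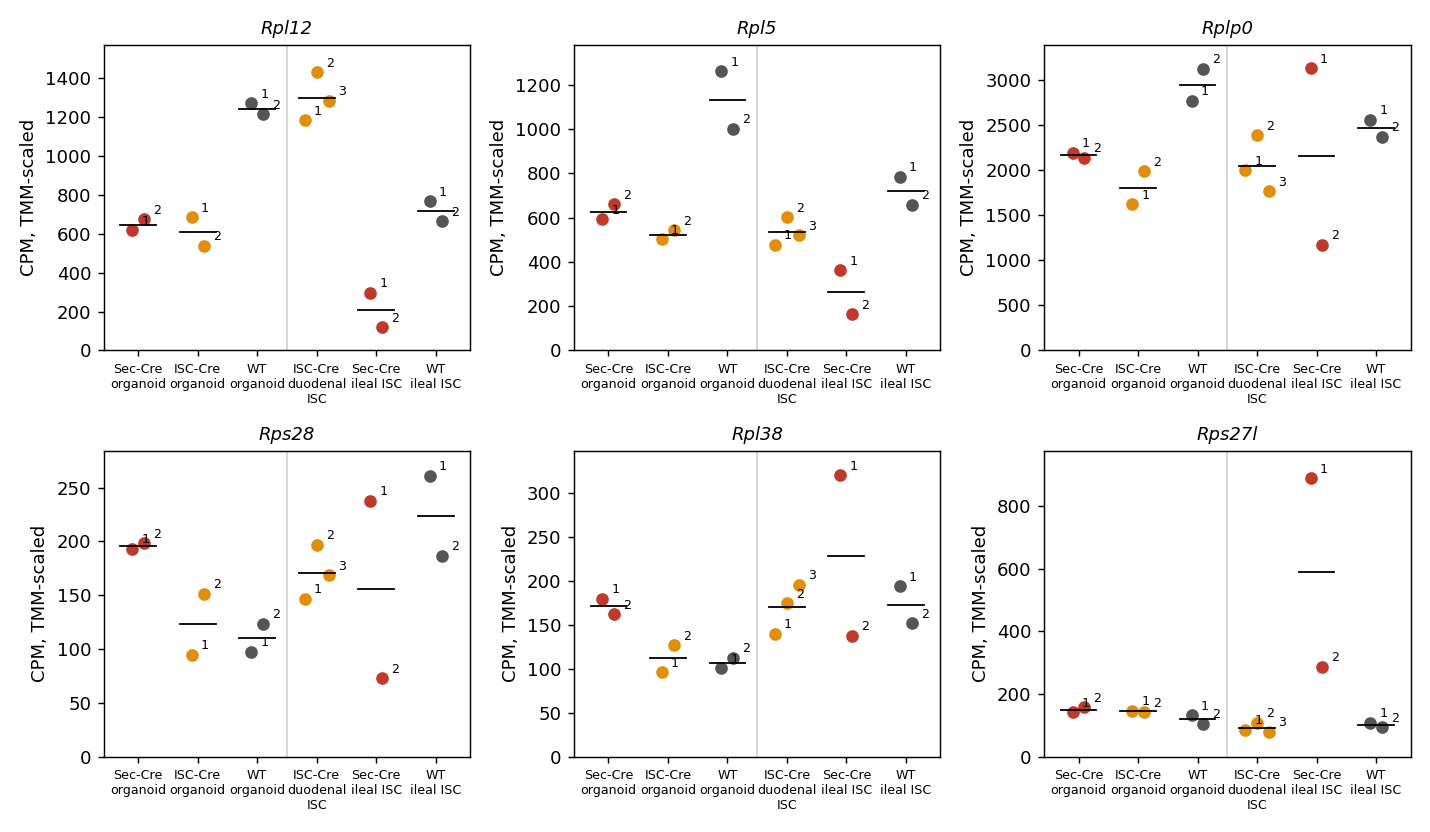
TMM-scaled CPM of 6 ribosomal protein genes in each library, numbered by replicate, with bars at group means. Rpl12 and Rpl5 are lower in both Cre-carrying organoid groups than in WT organoids, Rps28 and Rpl38 are higher in Sec-Cre than in WT organoids, and Rps27l is highest in the 2 libraries labelled ileal Sec-Cre ISCs (889 and 288 CPM).

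The members that rose were among the shortest. Of 12 members under 500 bases, 4 rose and 2 fell in Sec-Cre organoids (median 0.26), and 1 rose and 5 fell in ISC-Cre organoids (median -0.16). Of 24 members of 1000 bases or more, 18 fell in Sec-Cre and 22 in ISC-Cre organoids, with medians of -0.58 and -0.76, and none rose. Genes outside the family ran the other way with length: those under 500 bases had medians of -0.32 in Sec-Cre and -0.50 in ISC-Cre organoids, and those over 5000 bases of 0.07 and 0.11. Across 73 members, Spearman's rho between length and log2 fold change was -0.37 in Sec-Cre and -0.28 in ISC-Cre organoids, a description over genes that share their libraries. A correction for the length trend, fitted on the other genes, left 39 falls in Sec-Cre and 53 in ISC-Cre organoids, all of them among the calls above, and medians of -0.40 and -0.51. The 6 tested members with under 20% shared words had medians of -0.56 and -0.82, with 5 and 6 of them lower.

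Ribosomal proteins outside the symbol pattern were mostly lower too. Of 6 tested, 4 fell in Sec-Cre and 5 in ISC-Cre organoids. Gnb2l1, the scaffold protein RACK1 of the small subunit, had 1283 and 1321 CPM in Sec-Cre organoids, 1222 and 1164 CPM in ISC-Cre organoids, and 2115 and 2116 CPM in WT organoids, and Fau, which is made as a ubiquitin-like fusion with a small subunit protein, fell by 0.69 and by 0.87. Rpl22l1, the paralog of Rpl22, fell by 0.69 in ISC-Cre organoids, with a log2 fold change of 0.19 in Sec-Cre organoids.

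Of 24 other TOP mRNAs and translation factors, 11 fell and 2 rose in each Cre-carrying organoid group, with medians of -0.34 and -0.36. Of all genes, 16.3% fell and 16.7% rose in Sec-Cre organoids, and 18.5% fell and 19.3% rose in ISC-Cre organoids. Eef1b2, an exchange factor of elongation, fell by 0.83 in Sec-Cre and by 1.00 in ISC-Cre organoids, and Tpt1 by 0.82 in each. Few ribosome biogenesis genes were called: of 54, 2 rose and 1 fell in Sec-Cre organoids and 1 rose and 3 fell in ISC-Cre organoids, with medians of 0.17 and -0.06. Myc had 176 and 181 CPM in Sec-Cre organoids, 158 and 171 CPM in ISC-Cre organoids, and 169.9 and 187 CPM in WT organoids, so its values overlapped. Among 19 genes of ribosomal protein chaperones and ribosomal stress, 4 rose and 1 fell in Sec-Cre organoids and 4 rose and 2 fell in ISC-Cre organoids, among the rises the p53 targets Mdm2 (1.28 and 1.31) and Bax (0.90 and 0.69). With 16.7% and 19.3% of all genes higher in these comparisons, those counts are near the background and show nothing about the list. Cdkn1a had log2 fold changes of -0.15 and 0.11 and was not called.

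Genes of the mitochondrial machinery, which are also short, differed by list. Of 50 nuclear-encoded subunits of oxidative phosphorylation, 22 fell and 1 rose in Sec-Cre organoids and 33 fell in ISC-Cre organoids, with medians of -0.33 and -0.65, and of 74 mitochondrial ribosomal proteins 11 fell in Sec-Cre and 21 in ISC-Cre organoids and 1 rose in each, where 16.3% and 18.5% of all genes fell; the first of these 2 counts is no more than that background. Cell type markers moved with these results. All 5 enterocyte, 5 goblet, 5 enteroendocrine and 4 tuft cell markers fell in both Cre-carrying organoid groups. The enterocyte markers took 0.00148% and 0.00147% of gene counts in Sec-Cre organoids, 0.000971% and 0.000985% in ISC-Cre organoids, and 0.252% and 0.163% in WT organoids. Of the 6 stromal and endothelial markers, Vim and Cdh5 rose in both, to 265 to 686 CPM and 7.07 to 23.2 CPM in Cre-carrying organoids, against 9.97 to 11.7 CPM and 0 CPM in WT organoids, while Col1a1 and Col3a1 were at 0 in both WT libraries and at most 1.35 and 0.417 CPM in Cre-carrying organoids. Most of the summed share of the 6 markers in organoids came from Vim. That share was 0.0322% to 0.0690% of gene counts in Sec-Cre organoids, 0.0659% to 0.0845% in ISC-Cre organoids, and 0.00106% to 0.00134% in WT organoids. Of 5 tested Paneth cell markers 1 rose and 3 fell in Sec-Cre and 1 rose and 1 fell in ISC-Cre organoids, of 3 tested immune markers 1 rose in each, of 4 epithelial markers 2 fell in Sec-Cre and 3 in ISC-Cre organoids, and of 5 ISC markers 2 rose in each while 1 fell in Sec-Cre and 2 in ISC-Cre organoids. Multimapping reads made up 5.15% and 4.82% of all reads in Sec-Cre organoids, 5.10% and 5.12% in ISC-Cre organoids, and 6.57% and 6.15% in WT organoids. The part of these differences in the fall of ribosomal protein genes was not tested.

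The calls in organoids depended on the spread they were judged against. With all 13 libraries in 1 fit, whose spread includes the sorted cells, no member fell in Sec-Cre (6 of 77 at an unadjusted p under 0.05) and 5 fell in ISC-Cre organoids, at medians of -0.42 and -0.69. Without Sec-Cre organoid replicate 1 or 2, the family's medians in Sec-Cre organoids were -0.43 and -0.51. There, scaling by total counts alone gave 31 falls and 7 rises, with no share of all genes called given here. That scaling set the median of all genes at 0.21 in Sec-Cre and 0.24 in ISC-Cre organoids, and the family's at -0.31 and -0.52. In ISC-Cre organoids, leaving out any 1 library left 55 to 60 falls. Without either Sec-Cre replicate the Sec-Cre calls of Rplp0, Rpl3, Rpsa, Rps6, Rps19 and Rps27a were lost, whereas those of Rpl12, Rpl5, Rpl4, Rps4x and Rps24 were kept.

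**Figure D4:**
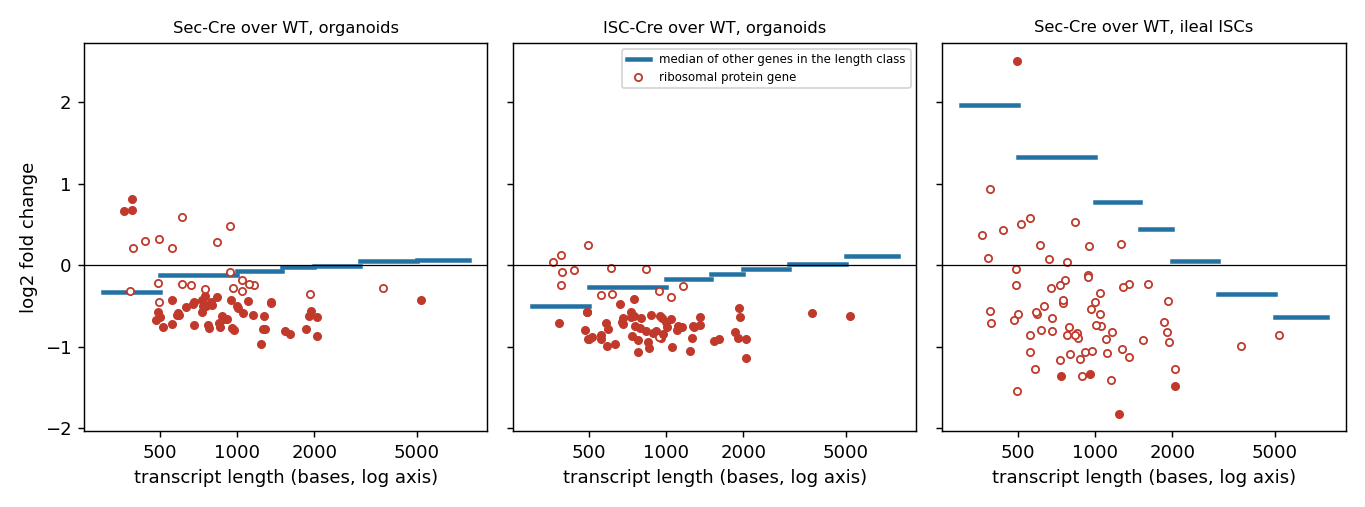
Log2 fold change against transcript length (bases, log axis) for each ribosomal protein gene (points, filled where adjusted p is under 0.05) and for the other genes of a length class (lines, class medians of genes above a log2 CPM of 3). In organoids the family's class medians lie below the lines from 500 bases on; in the libraries labelled ileal Sec-Cre ISCs short genes outside the family were raised (median 1.97 under 500 bases) and nearly all ribosomal protein genes lie below them.

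In the libraries labelled ileal Sec-Cre ISCs few members were called. Of 77 tested, 4 fell and 1 rose relative to ileal WT ISCs (edgeR, 14577 genes), where 6.96% of all genes fell and 9.62% rose. The median of the family was -0.67, against 0.00 for all genes tested, and 15 members had an unadjusted p under 0.05. The spread between the 2 libraries was wide: relative to the mean of the ileal WT libraries, the median member stood at -0.09 in replicate 1 and at -1.37 in replicate 2.

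Rpl12 again showed the lowest fold change. It had 297 and 119 CPM in the libraries labelled ileal Sec-Cre ISCs and 767 and 666 CPM in ileal WT ISCs, without overlap (-1.82 ± 0.47, adjusted p = 0.0327). Rpl5 had 363 and 164 CPM, against 785 and 658 CPM in ileal WT ISCs, again without overlap (-1.49 ± 0.42, adjusted p = 0.0434). Rpl9 and Rps7 fell by 1.35 (adjusted p = 0.0433) and by 1.33 (adjusted p = 0.0276). Rpl9 is a protein of the large subunit, and Rps7 takes part in the assembly of the small subunit. Each of these 4 genes was also among those that fell in both organoid comparisons. There 50 members fell in Sec-Cre and 60 in ISC-Cre organoids, most of those tested in each, so this overlap shows little.

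Rps27l was the one member that rose. It is a paralog of Rps27 and a p53 target. It had 889 and 288 CPM in the libraries labelled ileal Sec-Cre ISCs and 108 and 94.6 CPM in ileal WT ISCs, and both Sec-Cre libraries lay above every other library of the series (2.51 ± 0.50, adjusted p = 0.0137). In organoids it had 142 and 158 CPM with Sec-Cre, 147 and 142 CPM with ISC-Cre and 133 and 105 CPM in the WT libraries, with log2 fold changes of 0.32 (adjusted p = 0.136) and 0.25 (adjusted p = 0.214). The p53 targets Cdkn1a and Bax rose beside it in the ileal libraries, Cdkn1a to 685 and 336 CPM against 55.2 and 72.0 CPM in ileal WT ISCs (2.97, adjusted p = 0.00416) and Bax by 1.29 on the log2 scale (adjusted p = 0.0321), while Mdm2 was not called (-0.53). Rps27l is 499 bases long, and after the length correction its log2 fold change was 0.81 and it was no longer called. Short genes outside the family rose in this contrast as well (median 1.97 under 500 bases). No length-corrected value is given here for Cdkn1a or Bax, and a link of these rises to p53 was not tested.

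Transcript length moved strongly with the ileal contrast. Genes outside the family had a median log2 fold change of 1.97 under 500 bases, 1.32 from 500 to under 1000 bases, 0.77 from 1000 to under 1500 bases and -0.64 over 5000 bases. Of 50 oxidative phosphorylation subunits 46 rose (median 1.91), and of 74 mitochondrial ribosomal proteins 20 rose. In this contrast 9.62% of all genes rose and 6.96% fell. The members under 500 bases had a median of 0.02, those from 500 to under 1000 bases of -0.60 and those of 1000 bases or more of -0.84, below the other genes of each length class. The other TOP mRNAs had 9 of 24 lower and none higher, with Eef1b2 at -1.75 (adjusted p = 0.0166).

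With the length trend corrected, 42 members fell and none rose, at a median of -1.65, where 4.43% of all genes fell. Of the 4 falls called without the correction, 3 were among them. The lowest of the named genes after correction were Rplp1 at -3.17, Rpl9 at -2.54 and Rpl12 at -2.51. The correction assumes that ribosomal protein transcripts share the trend of other short transcripts, which was not tested.

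Both libraries of the group mattered. The family's median was -1.39 without replicate 1 and -0.15 without replicate 2. With the length correction as well, an alternative chosen after seeing the data, these medians were -2.17 and -1.36. Scaling by total counts alone gave 30 falls and no rise (median -1.72, with all genes at -0.71). The share of all genes called under that scaling is not given here. Leaving out ileal WT replicate 1 or 2 gave no call, with 8 or 9 members at an unadjusted p under 0.05. Without duodenal replicate 1 or 2, which share the fit, no member fell and Rps27l alone rose. The call of Rps27l was kept without either Sec-Cre replicate (1.46 without replicate 1, 3.10 without replicate 2) and lost without either ileal WT replicate. Enterocyte markers took 1.31% and 1.40% of gene counts in the 2 libraries labelled ileal Sec-Cre ISCs and 0.0331% and 0.0352% in ileal WT ISCs, and Paneth cell markers 17.8% and 0.818%, against 1.72% and 1.21%. The part of these cells, of the unmapped reads or of the length trend in the lower share of ribosomal protein transcripts was not tested.

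The Sec-Cre effect was compared between organoids and ileal ISCs as an interaction over 15208 genes. Higher and lower here refer to the log2 fold change over WT in organoids minus that in ileal ISCs, not to levels. No member had a higher effect in organoids and 1 had a lower one, Rps27l at -2.13 ± 0.55 (adjusted p = 0.0143, edgeR). Of all genes, 13.4% were higher and 13% lower. Among the members, 4 had an unadjusted p under 0.05, and there was 1 call with DESeq2 and 7 with limma voom. The median of the family was 0.27, against 0.16 for all genes tested. With the length correction 39 members had a higher effect in organoids, where 10.7% of all genes did, at a median of 1.40, and Rps27l was not called. The family's median was 1.00 without ileal Sec-Cre replicate 1 and -0.28 without replicate 2. The call of Rps27l was lost without Sec-Cre organoid replicate 1, WT organoid replicate 1 or ileal WT replicate 2.

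Duodenal ISC-Cre ISCs were set beside both ileal groups. Against ileal WT ISCs, 3 of 77 members fell and 1 rose, where 8.84% of all genes fell and 10.2% rose, at a median of -0.19. Rpl13 had 373, 462 and 317 CPM in duodenal ISC-Cre ISCs and 1206 and 1098 CPM in ileal WT ISCs (-1.63 ± 0.35, adjusted p = 0.0152). Its groups did not overlap, and the libraries labelled ileal Sec-Cre ISCs, with 1527 and 895 CPM, lay around the WT values. Rpl27 (-1.50, adjusted p = 0.0353) and Rpl15 (-1.20, adjusted p = 0.0425), 2 further large subunit genes, fell, and Rps27 rose, with 61, 65 and 30 reads in duodenal ISC-Cre ISCs against 3 and 0 in ileal WT ISCs. The second strand held 98.5% to 98.9% of stranded counts in duodenal libraries and 48.4% to 51.1% in all others, and this difference goes with the region. Cell type markers moved too: goblet cell markers (4 of 5 lower) took 0.0823% to 0.118% of gene counts in duodenal ISC-Cre ISCs and 1.32% to 1.57% in ileal WT ISCs. Stromal and endothelial markers (2 of 3 tested higher) took 0.0437% to 0.0825% in duodenal ISC-Cre ISCs and 0.00108% to 0.00153% in ileal WT ISCs. Immune markers (2 of 4 tested lower) took 0.00380% to 0.0241% in duodenal ISC-Cre ISCs and 0.101% to 0.124% in ileal WT ISCs. All 5 enteroendocrine markers were lower, and Col1a1, Col3a1 and Cdh5 were at 0 in both ileal WT libraries. Their part in the duodenal contrasts was not tested. The 3 falls were lost without either ileal WT replicate or without duodenal replicate 1, and without ileal Sec-Cre replicate 1 or 2, which share the fit, 10 or 9 members fell.

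Against the libraries labelled ileal Sec-Cre ISCs, 7 members were higher and 2 lower in duodenal ISC-Cre ISCs, where 21% of all genes were higher and 19.8% lower, at a median of 0.41. Rpl12 had 1183, 1432 and 1284 CPM in duodenal ISC-Cre ISCs and 297 and 119 CPM in the libraries labelled ileal Sec-Cre ISCs (2.63 ± 0.46, adjusted p = 0.00297). Rplp1 (1.77), Rpl9 (1.57), Rpl13a (1.41), Rpl22 (1.26), Rps15a (1.19) and Rpl7 (1.19) were higher as well, and Rps27l (-2.70) and Rpl13 (-1.67) lower. With the length correction 56 members were higher, where 18% of all genes were, at a median of 1.62. The family's median was 1.10 without ileal Sec-Cre replicate 1 and -0.18 without replicate 2. Leaving out another library left 2 to 5 higher.

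WT organoids were compared with ileal WT ISCs to set the organoid levels beside sorted cells. No member of 77 was called higher or lower in WT organoids, where 1.98% of all genes were higher and 1.89% lower, and 4 had an unadjusted p under 0.05; the median was 0.24. DESeq2 called none, limma voom called 6 members and a fit of the compared groups alone called 11. Rps28 had 97.4 and 123 CPM in WT organoids and 261 and 187 CPM in ileal WT ISCs without passing the test (-1.02, adjusted p = 0.265).

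Across the 13 libraries, the members whose log2 CPM followed the family's mean closely included Rpl14 (Pearson's r = 0.951) and Rpl11 (0.950), and the least close were Rps29 (0.157), Rpl38 (0.119) and Rps27l (-0.199). Outside the family the closest genes were Gnb2l1 (0.905), Pbx2 (0.881) and Sod1 (0.878). These values describe 13 libraries that share group, depth and scaling.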

How the data were processed

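RNA-seq libraries of 13 samples were read from the deposited tables, which hold whole-number read counts per gene for both strands together and for each strand. Per the submitters' processing notes, STAR, DESeq2 1.22.2 and the build mm10 were used; the STAR version and the gene annotation are not given in the sources used here. Per the labels' protocols the kit was non-directional. The column for both strands was used, and summary lines that name no gene (22.3% to 84.5% of all reads) were left out.

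The ribosomal protein genes and the gene lists were chosen with earlier results of these data known. Symbols were matched to GENCODE vM21 for 23683 of 24054 genes. Lengths are those of 1 principal transcript per gene, which is long for some members (Rps15a, 5179 bases).

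Groups were compared with edgeR 4.0.16 in R 4.3.3 (filterByExpr, minimum count 10, TMM, quasi-likelihood test, Benjamini-Hochberg threshold 0.05): 6 organoid libraries in 1 fit, 7 ISC libraries in another (77 members tested) and all 13 for the interaction. The fit was tested on simulated data. Alternatives used limma 3.58.1 and DESeq2 1.42.0, other scalings and filters, a replicate block, a length correction (lowess span 0.3 on genes outside the family) and leaving out each library. Levels are CPM from TMM-scaled library sizes unless total counts are named. SE are from the F statistic. Of each comparison, up to 5 called rises and 5 falls with a mean log2 CPM of at least 3 were named, with stalk proteins, Rpsa, Rpl3, Rpl5, Rpl11, Rps6, Rps19, Rps27a, Rpl22 and tissue paralogs; from other lists, up to 3 called genes with the smallest adjusted p were named, and Fau, Gnb2l1, Rpl22l1, Rpl36al, Apc and Myc. Genes outside this rule, such as Col1a1, Col3a1, Rpl39l levels and uncalled p53 targets, were chosen after their values were seen. No label says that replicates came from separate animals, so each p-value reflects sample-to-sample spread that may be technical. No library was a copy of another of its group (chi-square over its degrees of freedom, 18.9 to 1655 between replicates). Pairs across groups were not compared in this way. Some items are not reported here. Floors and reads cover counting error only. Plots used Python 3.11.15.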

Additional observations from a re-analysis of the deposited data

Results flagged for a closer look

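The effect of Sec-Cre on Rps27l differed between organoids and ileal ISCs by a test of the difference itself: the log2 fold change in organoids minus that in the libraries labelled ileal Sec-Cre ISCs was -2.13 (adjusted p = 0.0143, edgeR interaction term). The call was lost with the length correction (-0.37), with total counts as scaling (-0.89), and without Sec-Cre organoid replicate 1 (-2.04), WT organoid replicate 1 (-1.95) or ileal WT replicate 2 (-2.01). The ileal rise behind it (2.51) was itself no longer called with the length correction (0.81), with total counts (1.38), with only the compared groups in the fit, or without ileal WT replicate 1 (2.61) or 2 (2.40).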

How the results depend on the processing

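Of 997 values of 55 gene results under the alternatives, 793 kept their direction and side of the threshold, 184 lost their call, 13 gained one and 7 changed sign, all 7 of them Rpl39 in ISC-Cre against WT organoids (-0.03): 0.062 with upper-quartile scaling, 0.18 with total counts, 0.0086 with 13 libraries in 1 fit, 0.27 with the length correction, 0.23 with that and the replicate block, and 0.26 and 0.05 without ISC-Cre or WT organoid replicate 1 (range over libraries left out, -0.38 to 0.26). The cause was not tested.

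Counts below are given without the share of all genes called under the same setting, so they show only how far the calls moved. The number of members called in Sec-Cre against WT organoids was 1 with 13 libraries in 1 fit and 35 with the length correction and block, and in ISC-Cre against WT organoids 6 with 13 libraries. DESeq2 called 2 members between Sec-Cre and ISC-Cre organoids. In the libraries labelled ileal Sec-Cre ISCs against ileal WT ISCs, 3 were called with DESeq2-type size factors in edgeR, 30 with total counts, 10 with DESeq2, 16 with limma voom, 8 without a filter, 0 with only the compared groups, 16 with 13 libraries and 42 with the length correction, alone or with the block. In duodenal ISC-Cre against ileal WT ISCs, 2 were called with upper-quartile scaling, 0 with total counts, 25 with voom, 12 with only the compared groups, 9 with 13 libraries and 0 with the block. Against the libraries labelled ileal Sec-Cre ISCs, 41 were called with total counts, 18 with DESeq2 and 18 with voom, 22 with 13 libraries, 57 with the length correction and 49 with the block added. In the interaction, 33 were called with total counts, 7 with voom, 39 with the length correction and 42 with the block added. Between WT organoids and ileal WT ISCs, 6 were called with voom, 11 with only the compared groups, and 1 with the length correction, alone or with the block. With the length correction and without ileal Sec-Cre replicate 1 or 2, alternatives chosen after seeing the data, 62 and 43 were called in the ileum, 66 and 45 in the duodenal contrast with that group, and 64 and 39 in the interaction.

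Leaving out 1 library gave 16 to 51 calls in Sec-Cre organoids, 55 to 60 in ISC-Cre organoids, 0 between them, 0 to 47 in the ileum, 0 to 13 and 4 to 45 in the duodenal contrasts with ileal WT and Sec-Cre ISCs, 0 to 38 in the interaction and 0 to 3 between WT groups; a lone library is then assumed to vary like the others. Without TMM factors the summed level was 52237 CPM in Sec-Cre, 46559.7 CPM in ISC-Cre and 66853 CPM in WT organoids.

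Replicate numbers did not pair the samples: same-numbered deviations correlated at -0.17 to 0.05. With the replicate block, 48 members were called in Sec-Cre and 61 in ISC-Cre organoids, 4 in the ileum, 7 in the duodenal contrast with ileal Sec-Cre ISCs, 1 in the interaction and 0 between WT groups. With 2 libraries in most groups, small changes could not be detected, and reads shared with pseudogenes limit the level of most members.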

Other observations

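Rps4l had 2 and 1193 reads in Sec-Cre organoids, 364 and 67 in ISC-Cre organoids, 111 and 550 in WT organoids, 1798, 2979 and 754 in duodenal ISC-Cre ISCs, 315 and 2609 in the libraries labelled ileal Sec-Cre ISCs and 560 and 2417 in ileal WT ISCs. Rpl39l, a paralog of Rpl39 expressed in testis, had 13 reads in duodenal ISC-Cre replicate 2 and none elsewhere.

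Rpl36al, the autosomal paralog of Rpl36a, had 39.4, 52.4 and 39.2 CPM in duodenal ISC-Cre ISCs, against 221 and 152 CPM in the libraries labelled ileal Sec-Cre ISCs and 153 and 174 CPM in ileal WT ISCs, and 119 to 174 CPM in the 6 organoid libraries. Rpl13a had 1158, 1453 and 1134 CPM in duodenal ISC-Cre ISCs, against 640.4 and 288 CPM in the libraries labelled ileal Sec-Cre ISCs and 647 and 500.4 CPM in ileal WT ISCs.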
